A study of Mus musculus with 59 samples.

Results

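The effect of potassium hydroxycitrate (HC) on mouse gastrocnemius muscle 2 days after a toxin injury was examined across all genes. The comparison was of 3 libraries from injured and HC-treated muscle (CTX-HC 2 DPI) with 3 libraries from injured and untreated muscle (CTX 2 DPI), where DPI stands for days post injury. These 6 libraries were chosen by their labels from 15 gastrocnemius libraries and from 59 libraries in the whole series, and 24972 genes had a value in each of them. All mice were wild-type male C57BL/6, aged 6 ± 1 months. Cardiotoxin (CTX, 10 µM) was injected into the left hind limb of both groups, and HC was then given in the standard diet to CTX-HC mice only, until the muscle was taken. The other groups of 3 libraries each entered the estimate of the spread and are given as context: CTX-HC 30 DPI, CTX 30 DPI and uninjured, untreated control muscle. RNA came from bulk muscle, so a lower value can come from fewer cells of a type or from less RNA in each cell, and these cannot be told apart.

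Cardiotoxin is a snake venom protein that lyses muscle fibers and largely spares the satellite cells, the stem cells of muscle. Neutrophils and inflammatory monocytes enter first, monocytes become macrophages that clear the dead fibers, and satellite cells then divide, fuse and rebuild fibers that pass through embryonic myosins before adult ones. HC is a citrate analog that competes with citrate at ATP citrate lyase, the enzyme that splits cytosolic citrate into oxaloacetate and acetyl-CoA. Acetyl-CoA feeds the synthesis of fatty acids and cholesterol and is the donor for protein acetylation. The gastrocnemius is mostly a fast-twitch muscle with a smaller share of slow-twitch fibers, which carry their own isoforms of myosin and troponin.

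The deposited values were gene counts that the authors normalized, and are called normalized values here. The estimated depth was 16900000 to 22100000 reads in CTX-HC 2 DPI libraries and 18200000 to 27300000 in CTX 2 DPI libraries. Genes of skeletal muscle fibers were the most abundant in all 6 libraries, with Ttn, the giant spring protein of the sarcomere, taking 12 to 15.5% of the total value in CTX-HC libraries and 15.9 to 19.4% in CTX libraries. The 3 libraries of a group were not alike. On the first principal component, which held 51.7% of the variance, CTX-HC libraries lay at -111.3, -89.1 and -44.0 and CTX libraries at -33.6, -73.4 and 16.3, so the groups overlapped, and CTX replicate 3 lay beside 2 of the 3 controls (16.0 and 25.3). CTX-HC replicate 3 correlated better with CTX replicate 1 (r = 0.971 over genes on the log2 scale) than with either of its own group (0.940 and 0.954). At 30 DPI, CTX-HC replicate 3 and CTX replicate 1 stood apart from their groups, and the summed value of B cell genes was 7453 in CTX-HC 30 DPI replicate 3 and 511 in CTX 30 DPI replicate 1, against 13 to 53 in the other 13 libraries. The library numbers in the labels run in sequence by group (58 to 60 for CTX-HC and 55 to 57 for CTX). The labels do not say what these numbers record, and whatever they follow cannot be told apart from the treatment. The study treats each library as 1 mouse and the labels do not say so, and the p-values below measure the spread between these samples.

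Across the 14033 genes tested, no gene passed an adjusted p of 0.05 (0% called, limma with Benjamini-Hochberg adjustment), while 1005 had an unadjusted p below 0.05, of which 391 were higher and 614 lower in CTX-HC. The smallest adjusted p was 0.105, shared by Atp1b2 and Calcoco1, both lower in CTX-HC. At the threshold of the study, read here as an unadjusted p of 0.05 or lower with a log2 fold change of at least 1 in size, 129 genes were higher (0.919% of genes tested) and 120 were lower (0.855%). Since none passed the adjusted threshold, the genes below are described by their values and are not called as changed.

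The number at this threshold depended on single libraries. Without CTX-HC replicate 1, 2 or 3 in turn, 36, 55 and 567 genes were higher and 73, 166 and 182 were lower. Without CTX replicate 1, 2 or 3 in turn, 155, 366 and 29 were higher and 165, 168 and 100 were lower. Without CTX-HC 30 DPI replicate 3, which enters the spread and the filter on low values but neither group mean, 248 were higher and 133 lower. Of the 129 genes at the threshold in the fit of all libraries, 17 were still there without CTX-HC replicate 1 and 16 without CTX replicate 3. Of the 120 lower genes, 54 and 76 were still there in the same fits.

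**Figure D1:**
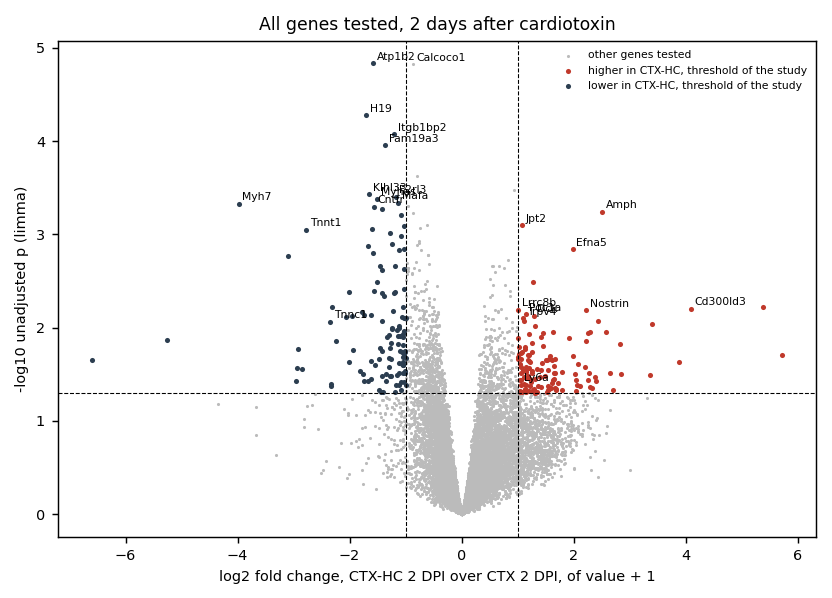
Log2 fold change of CTX-HC 2 DPI over CTX 2 DPI (x axis) against -log10 of the unadjusted p (y axis) for the 14033 genes tested. Red points are the 129 genes higher and dark points the 120 genes lower in CTX-HC at the threshold of the study, marked by dashed lines, and the genes of lowest p are on the lower side.

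The groups did not overlap in 867 genes that were higher in CTX-HC (6.18% of genes tested) and in 1032 that were lower (7.35%). These shares are the background for all counts of list members without overlap given below. At the threshold of the study, 72 of the 129 higher genes and 100 of the 120 lower genes had groups that did not overlap. The median standard error was 0.58 for the higher genes and 0.43 for the lower ones, against 0.32 over all genes tested, all on the log2 scale. The median log2 fold change over all genes tested was 0.02, so the values below can be read against a center near 0.

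The 10 lower genes of smallest p were taken only from genes at the threshold of the study whose groups did not overlap. They included a sodium pump subunit, a slow myosin, an imprinted RNA and a muscle chaperone. Atp1b2, the beta 2 subunit of the sodium pump (chr11:69599736-69605942, minus strand, GRCm38), had 2859, 4564 and 3252 normalized values in CTX-HC libraries, against 7966, 12917 and 11048 in CTX libraries. Its log2 fold change was -1.58 ± 0.24 (SE, n = 3 each, adjusted p = 0.105), and the CTX-HC libraries lay below all controls (8969 to 10643), which the CTX libraries spanned. H19, an imprinted long noncoding RNA that is abundant in embryonic and regenerating muscle (chr7:142575529-142578143, minus strand), had 5561, 6632 and 6594 in CTX-HC libraries, against 18363, 22349 and 20370 in CTX libraries. The 3 CTX-HC libraries of H19 were close together and below all controls (9354 to 16166), while all 3 CTX libraries were above the controls. The log2 fold change of H19 was -1.70 ± 0.29 (SE, n = 3 each, adjusted p = 0.248). Its imprinted neighbor Igf2, a growth factor of muscle repair looked up after the values of H19 were seen, had 915, 474 and 419 in CTX-HC libraries and 780, 3945 and 2604 in CTX libraries, and the groups overlapped through CTX replicate 1.

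Itgb1bp2 encodes melusin, a chaperone of striated muscle that binds the beta 1 integrin tail. It had 407, 634 and 665 in CTX-HC libraries, against 1090, 1595 and 1200 in CTX libraries (log2 fold change -1.20 ± 0.22, adjusted p = 0.298). Klhl33, a kelch-like gene of unsettled function, had 135, 296 and 167 in CTX-HC libraries and 395, 907 and 582 in CTX libraries. Mafa, a transcription factor of the large MAF family known for insulin genes in beta cells and also active in fast fibers, had 253, 423 and 421 in CTX-HC libraries and 800, 763 and 777 in CTX libraries. In all 3 genes every CTX-HC library also lay below every control. Cntfr, the receptor for ciliary neurotrophic factor, had 136, 99.0 and 53.2 in CTX-HC libraries and 325, 352 and 169 in CTX libraries. Myhas, a noncoding transcript of the fast myosin cluster, had 57.9, 108 and 113 in CTX-HC libraries and 194, 300 and 283 in CTX libraries, with the limit that it lies among myosin genes and that the strand setting of the counting is not given in the sources used here. Fam19a3 (a secreted peptide) and F2rl3 (the thrombin receptor PAR4) completed the 10 with Myh7, with log2 fold changes of -1.36 and -1.18. Calcoco1, a selective autophagy receptor, did not reach the fold of the threshold, with 984, 1170 and 1089 in CTX-HC libraries and 1706, 2101 and 2139 in CTX libraries (-0.87 ± 0.13, adjusted p = 0.105), and the CTX libraries overlapped the controls (1692 to 1950).

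**Figure D2:**
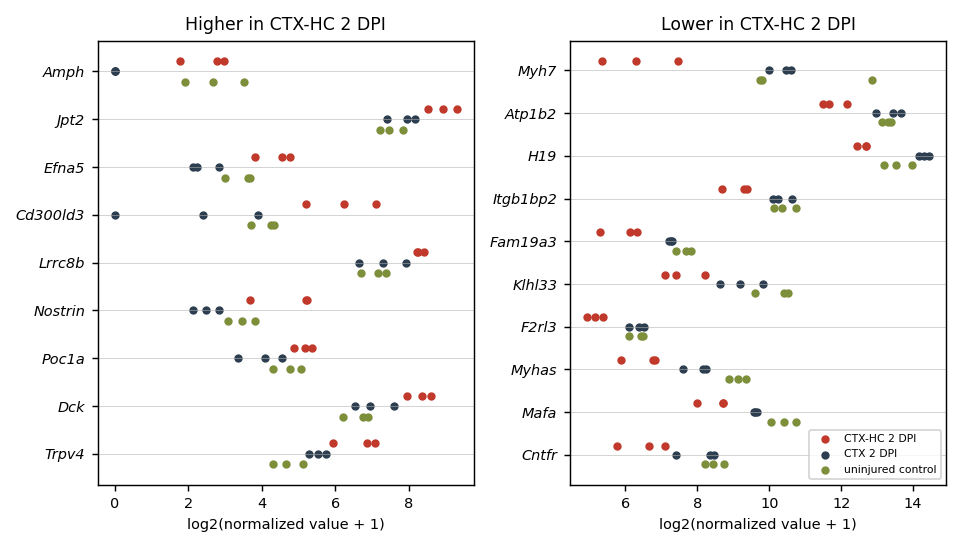
Normalized values (log2 of value + 1, x axis) of 9 of the 10 higher and the 10 lower genes of smallest p, with 1 point per library for CTX-HC 2 DPI (red), CTX 2 DPI (dark) and uninjured control (green). Genes were picked from those without overlap, so the CTX-HC and CTX points are apart by selection. In the panel of lower genes the CTX-HC points also lie left of the controls for most genes.

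The 10 higher genes of smallest p, picked in the same way from genes without overlap, were of mixed function. Jpt2, which binds the second messenger NAADP, had 634, 486 and 369 in CTX-HC libraries, against 246, 288 and 170 in CTX libraries (log2 fold change 1.08 ± 0.25, SE, n = 3 each, adjusted p = 0.523). Dck, the deoxycytidine kinase that salvages nucleosides for DNA synthesis, had 386, 330 and 248 in CTX-HC libraries and 122, 192 and 91.7 in CTX libraries. Lrrc8b, a subunit of the volume-regulated anion channel, had 341, 304 and 297 in CTX-HC libraries and 155, 244 and 98.6 in CTX libraries. Every CTX-HC library of these 3 genes also lay above every control. Trpv4, a calcium channel opened by cell swelling and stretch, had 116, 134 and 60.1 in CTX-HC libraries and 53, 45.2 and 38.1 in CTX libraries. Nostrin, which binds endothelial nitric oxide synthase, had 36.1, 36.2 and 11.9 in CTX-HC libraries and 4.63, 6.11 and 3.37 in CTX libraries. Amph, which encodes amphiphysin, a protein of membrane endocytosis, had 5.85, 6.92 and 2.41 in CTX-HC libraries and was listed at 0 in all 3 CTX libraries, with 2.79 to 10.5 in controls, so no fold is given. Efna5, Cd300ld3 and Poc1a had log2 fold changes of 1.98, 4.09 and 1.14. Cd300ld3 is 1 of a cluster of near-identical receptor genes and its reads may be shared with them.

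Acly, the target of HC, is transcribed from chr11:100476353-100528000 (minus strand). It had 1043, 924 and 364 in CTX-HC libraries, against 455, 483 and 267 in CTX libraries and 254 to 372 in controls. CTX-HC replicates 1 and 2 were above all CTX libraries and controls, and CTX-HC replicate 3 lay within the CTX range (log2 fold change 0.86 ± 0.48, SE, n = 3 each, adjusted p = 0.662). Of the 17 genes tested around citrate and acetyl-CoA supply, 11 were below 0 and 6 above 0 on the log2 fold change scale, with a median of -0.26, none at the threshold of the study and 1 higher without overlap (Aco1). The most abundant member was Pdk4, the kinase that shuts pyruvate dehydrogenase, with 14917, 15469 and 26214 in CTX-HC libraries and 24518, 14630 and 13582 in CTX libraries, and it overlapped between groups. Without CTX-HC replicate 1 the median of this list was 0.01.

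Among the genes downstream of acetyl-CoA, those of fatty acid synthesis showed no common direction. Of 16 genes of fatty acid synthesis, 8 had a log2 fold change above 0 (median 0.07, and -0.01 without CTX-HC replicate 2), with Elovl6, which elongates fatty acids, higher at the threshold of the study (94.7, 88.1 and 35.5 in CTX-HC libraries, 24.1, 38.6 and 10.3 in CTX libraries) and Thrsp, a regulator of lipogenesis, lower (61.9, 75.8 and 41.3 in CTX-HC libraries, 117, 109 and 131 in CTX libraries). Of 24 genes of cholesterol synthesis and uptake, 16 were above 0 with a median of 0.26 (0.16 without CTX-HC replicate 1 and 0.42 without CTX-HC replicate 3) and none reached the threshold. In this list 2 members did not overlap on the higher side (background 6.18%). Its most abundant member was Srebf2, the main transcription factor of the pathway, with 1906, 1691 and 1041 in CTX-HC libraries and 1083, 1600 and 863 in CTX libraries, with overlap between groups. Members named here and below because they reached the threshold of the study or did not overlap were chosen after their values were seen.

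The slow isoforms of myosin and troponin were lower in CTX-HC than in CTX. Myh7, the slow and cardiac beta myosin heavy chain (chr14:54970684-54994626, minus strand), had 77.2, 177 and 40.0 in CTX-HC libraries, against 1414, 1558 and 1015 in CTX libraries. Its log2 fold change was -3.98 ± 0.86 (SE, n = 3 each, adjusted p = 0.486). Every CTX-HC library lay below every control (859 to 7378), while the CTX libraries were within the range of the controls. Tnnt1, the slow troponin T (chr7:4504570-4516382, minus strand), had 76.9, 72.0 and 42.3 in CTX-HC libraries, against 280, 847 and 332 in CTX libraries (-2.78 ± 0.65, adjusted p = 0.523). Tnnc1, the slow troponin C (chr14:31208312-31211729, plus strand), had 59.3, 59.2 and 32.8 in CTX-HC libraries, against 168, 511 and 185 in CTX libraries (-2.34 ± 0.76, adjusted p = 0.662). Tnni1, the slow troponin I, had 119, 153 and 92.6 in CTX-HC libraries and 188, 968 and 370 in CTX libraries. In each of these 4 genes the 3 CTX-HC libraries were below the 3 CTX libraries.

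Of the 14 slow-fiber genes tested, 12 had a log2 fold change below 0, with a median of -1.09, and 5 did not overlap on the lower side (Myh7, Myl2, Tnnt1, Tnni1 and Tnnc1), where the background is 7.35%. The median was -0.54 without CTX-HC replicate 1 and -1.45 without CTX-HC replicate 2, the ends of its range with each of the 6 libraries left out. The 2 most abundant members did not share this pattern. Csrp3, a mechanosensor of the Z-disc, had 897, 7635 and 17854 in CTX-HC libraries and 1575, 3830 and 1766 in CTX libraries, and Ankrd2, a stretch-responsive protein, had 792, 6027 and 8560 in CTX-HC libraries and 7365, 2208 and 4209 in CTX libraries. The summed value of the list, which these genes dominate, was 10592, 22364 and 32797 in CTX-HC libraries and 18801, 20798 and 14181 in CTX libraries, so sum and median differ in direction. In controls, Myh7 alone varied between 859 and 7378, and the amount of slow-fiber tissue in each sample was not measured.

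**Figure D3:**
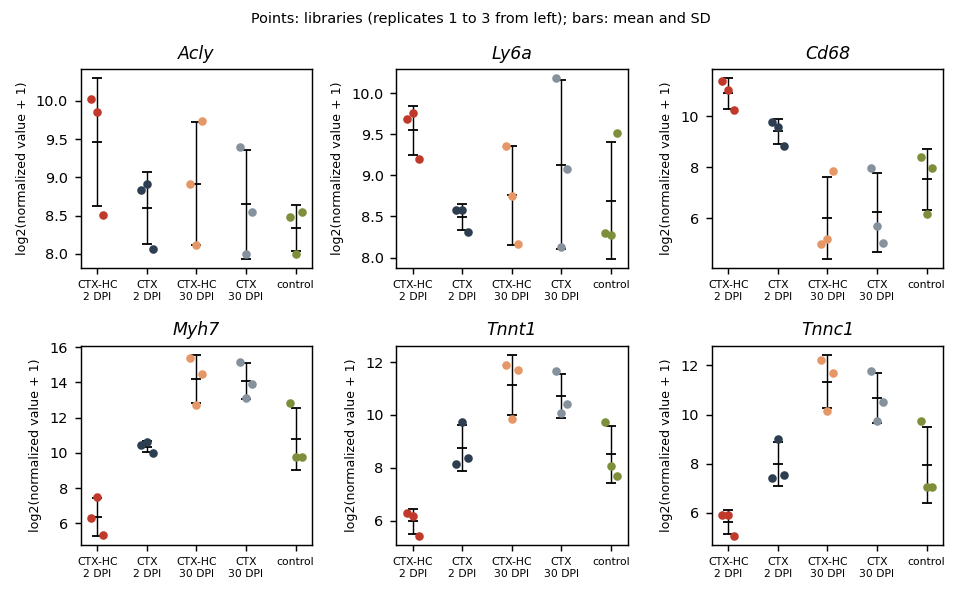
Log2 of normalized value + 1 (y axes) of Acly, Ly6a, Cd68, Myh7, Tnnt1 and Tnnc1 in the 5 gastrocnemius groups, with 1 point per library and bars for mean and SD. The slow-fiber genes of the lower row have their lowest points in CTX-HC 2 DPI and no overlap with CTX 2 DPI.

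The promoters of the 3 slow-fiber genes are shown because these genes were lower together. Each line gives the 250 bases before the first listed RefSeq start (GRCm38.p6), with matches of CANNTG, the E-box bound by myogenic factors and read the same on both strands, in capitals. Myh7 is at chr14:54994627-54994876 (minus strand), Tnnt1 at chr7:4515976-4516225 (minus strand) and Tnnc1 at chr14:31208062-31208311 (plus strand). The Tnnt1 stretch lies inside the gene span given above, which comes from another annotation.
Myh7: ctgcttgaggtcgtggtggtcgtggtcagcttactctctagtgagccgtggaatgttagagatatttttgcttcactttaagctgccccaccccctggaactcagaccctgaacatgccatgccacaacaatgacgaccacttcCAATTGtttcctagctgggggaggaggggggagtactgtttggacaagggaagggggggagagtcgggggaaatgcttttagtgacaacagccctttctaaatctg
Tnnt1: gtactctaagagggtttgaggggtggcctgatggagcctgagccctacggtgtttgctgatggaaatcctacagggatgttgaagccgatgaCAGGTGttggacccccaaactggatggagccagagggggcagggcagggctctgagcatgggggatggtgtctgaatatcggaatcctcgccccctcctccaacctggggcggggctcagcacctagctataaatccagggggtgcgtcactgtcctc
Tnnc1: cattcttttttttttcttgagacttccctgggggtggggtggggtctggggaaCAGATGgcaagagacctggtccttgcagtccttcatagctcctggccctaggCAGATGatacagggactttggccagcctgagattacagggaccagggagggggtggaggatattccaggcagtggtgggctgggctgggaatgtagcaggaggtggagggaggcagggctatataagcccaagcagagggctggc
Myh7 and Tnnt1 held 1 match each and Tnnc1 held 2. All 13 slow-fiber genes with a promoter in the table held CANNTG, against 57.6% of 10919 promoters of genes tested and 66.0% of all 27025 promoters. A match is a description of these letters and not evidence of binding.

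Fast-fiber and shared sarcomere genes were below 0 as well. All 19 fast-fiber genes tested had a log2 fold change below 0 (median -0.75, from -1.01 to -0.57 with each of the 6 libraries left out), and 8 did not overlap on the lower side (background 7.35%). Casq1, the calcium store protein of fast fibers, had 13632, 25499 and 26394 in CTX-HC libraries, against 43180, 51418 and 54498 in CTX libraries (-1.24 ± 0.30, SE, n = 3 each, adjusted p = 0.596). Tnnc2, the fast troponin C, was the other member at the threshold of the study, with 14051, 26662 and 28743 in CTX-HC libraries and 41867, 30660 and 73366 in CTX libraries. The 2 most abundant members were Myh4, the IIb myosin, with 424389, 458646 and 556200 in CTX-HC libraries and 872296, 496344 and 1082480 in CTX libraries, and Atp2a1, the fast calcium pump. Myh4 overlapped between groups, with a log2 fold change of -0.70 that was 0.25 after quantile normalization, and Atp2a1 did not overlap (245923, 378480 and 433107 in CTX-HC libraries, 566005, 497939 and 847451 in CTX libraries). The summed value of the list was 1225740 to 1977790 in CTX-HC libraries and 2272830 to 3547180 in CTX libraries, with no overlap.

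All 20 structural genes shared by fiber types were also below 0 (median -0.51, with -0.32 without CTX-HC replicate 1 and -0.85 without CTX-HC replicate 3), 5 of them without overlap (background 7.35%) and none at the threshold of the study. Ttn had 1981530, 2516330 and 3391110 in CTX-HC libraries, against 3725820, 4145500 and 5451090 in CTX libraries, a difference that quantile normalization removes by construction because Ttn is the most abundant gene in each library. Acta1, the skeletal alpha actin, had 269159, 377101 and 413142 in CTX-HC libraries, against 536929, 498436 and 740191 in CTX libraries. Within the CTX-HC group, both were lowest in replicate 1 and highest in replicate 3, the reverse of the order of the summed pan leukocyte values given below (25477, 17792 and 6324 in CTX-HC libraries), whose part in these differences was not tested.

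Genes of new fibers were mostly lower. Of the 14 embryonic and regenerating fiber genes tested, 11 were below 0 with a median of -1.38 (-0.77 without CTX replicate 2), and 4 did not overlap on the lower side (Myh8, Actc1, Chrng and Cdh15, background 7.35%). Myh8, the perinatal myosin, had 100, 85.9 and 115 in CTX-HC libraries, against 176, 944 and 771 in CTX libraries (-2.33 ± 1.03, SE, n = 3 each, adjusted p = 0.662). Actc1, the cardiac actin that new fibers use, had 504, 831 and 227 in CTX-HC libraries and 1302, 1833 and 1278 in CTX libraries. Myh3, the embryonic myosin, had 270, 95.8 and 30.2 in CTX-HC libraries and 96.9, 2482 and 1052 in CTX libraries, so its groups overlapped through CTX replicate 1. The 2 most abundant members, the intermediate filament genes Vim (12605, 12445 and 5096 in CTX-HC libraries, 6351, 8376 and 3366 in CTX libraries) and Nes (4950, 6719 and 6984 in CTX-HC libraries, 3709, 9915 and 3869 in CTX libraries), were not on the lower side. Vim is also made by leukocytes and stromal cells. Controls held Myh8 at 66.8 to 1128, a wide range within which all CTX-HC and CTX libraries lay.

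Genes of the neuromuscular junction were lower as well. Of 16 tested, 12 were below 0 (median -0.50, from -0.61 to -0.46 with each of the 6 libraries left out) and 5 did not overlap on the lower side (Chrnb1, Chrng, Rapsn, Lrp4 and Scn4a, background 7.35%). Lrp4, the muscle receptor for agrin, had 380, 571 and 633 in CTX-HC libraries, against 831, 1228 and 859 in CTX libraries (-0.89 ± 0.24, SE, n = 3 each, adjusted p = 0.624). Scn4a, the muscle sodium channel and the most abundant member, had 8345, 12805 and 14129 in CTX-HC libraries and 18284, 14528 and 27480 in CTX libraries. Musk, the kinase that Lrp4 activates, had 2913, 2807 and 3813 in CTX-HC libraries and 7246, 1720 and 6437 in CTX libraries, with overlap. The summed value was 21442 to 26615 in CTX-HC libraries, against 34589 to 43556 in CTX libraries and 33511 to 36574 in controls.

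The genes of satellite cells and myogenic commitment had no common direction, with 14 of 29 above 0 and a median of -0.00 (-0.24 without CTX-HC replicate 3 and 0.12 without CTX replicate 2). Myod1, which commits satellite cells to muscle, had 1578, 1259 and 1928 in CTX-HC libraries and 5593, 1950 and 1388 in CTX libraries. Myog, which drives their differentiation, had 2272, 1023 and 1355 in CTX-HC libraries and 5269, 2162 and 510 in CTX libraries. Both were highest in CTX replicate 1 and overlapped between groups. Pitx3, a homeobox factor of differentiating fibers, was the member at the threshold of the study, with 71.0 to 114 in CTX-HC libraries and 158 to 247 in CTX libraries. The most abundant member was Mef2c, a transcription factor of sarcomere genes, with 9738, 10816 and 14575 in CTX-HC libraries and 18175, 14935 and 18144 in CTX libraries, without overlap, followed by Mef2d with 8056, 8755 and 10295 in CTX-HC libraries and 9790, 9780 and 14371 in CTX libraries, with overlap.

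Leukocyte genes were higher on average in CTX-HC, with a wide spread in both groups. All 25 genes of the pan leukocyte list were above 0 with a median of 1.42, none had an unadjusted p below 0.05, and 1 did not overlap (background 6.18%). The summed value of the list was 25477, 17792 and 6324 in CTX-HC libraries, against 8615, 9186 and 1895 in CTX libraries and 686 to 2954 in controls. Replicates 1 and 2 of CTX-HC were above all CTX libraries, and replicate 3 lay within the CTX range. The median was 0.67 without CTX replicate 3 and 2.01 without CTX-HC replicate 3, the ends of its range with each of the 6 libraries left out. Its most abundant members were Lcp1, the leukocyte plastin, with 4636, 3082 and 817 in CTX-HC libraries and 1532, 1283 and 254 in CTX libraries, and Laptm5, a lysosomal protein of leukocytes, with 3473, 2854 and 935 in CTX-HC libraries and 1114, 1345 and 293 in CTX libraries.

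All 29 macrophage genes tested were above 0 (median 1.29, with 0.53 without CTX replicate 3 and 1.87 without CTX-HC replicate 3), with 2 not overlapping on the higher side, near the background of 6.18%, and 1, Lyve1, at the threshold of the study. Cd68, a lysosomal glycoprotein of macrophages, did not overlap, with 2708, 2107 and 1211 in CTX-HC libraries, against 886, 770 and 460 in CTX libraries and 70.3 to 341 in controls (1.48 ± 0.85, SE, n = 3 each, adjusted p = 0.662). Ctsd, cathepsin D, had 33482, 23818 and 15185 in CTX-HC libraries and 29486, 14667 and 17010 in CTX libraries, and Lyz2, lysozyme, had 12644, 8505 and 1956 in CTX-HC libraries and 5959, 2655 and 682 in CTX libraries, both with overlap. The summed macrophage value was 123146, 85818 and 36555 in CTX-HC libraries, against 71513, 44235 and 24577 in CTX libraries. CTX replicate 3 lay within the range of the controls (14699 to 26842), and the other 5 libraries lay above it.

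The lists of other leukocytes, apart from B cells, had medians on the same side and few members without overlap (background 6.18%). The median was 1.54 for 17 genes of monocytes and inflammatory macrophages, with all 17 above 0 and 2 without overlap, and 1.14 for 18 genes of alternatively activated macrophages, with 2 without overlap. Without CTX replicate 3 these medians were 0.73 and 0.74, the first was 2.30 without CTX replicate 2, and the second was 1.76 without CTX-HC replicate 3. For neutrophils it was 1.77 (0.60 without CTX replicate 3) over the 11 of 22 genes that passed the filter on low values, and the defining Ly6g was at 0.979 in CTX-HC replicate 1 and listed at 0 in the other 5 libraries, with S100a8 at 28.0, 15.9 and 8.32 in CTX-HC libraries and 17.4, 7.42 and 0 in CTX libraries. Of 15 genes of mast cells and granulocytes, 5 passed the filter, and the mast cell proteases Cma1 and Mcpt4 reached the threshold of the study, with Cma1 at 4.88, 12.9 and 3.61 in CTX-HC libraries and listed at 0 in all CTX libraries, and Mcpt4 at 12.7, 16.5 and 1.20 in CTX-HC libraries and 0.916, 0 and 0 in CTX libraries. These are values of a few reads. The 19 genes of dendritic cells and antigen presentation were all above 0 (median 1.43, with 0.90 without CTX replicate 3), 4 without overlap, with Cd209a at the threshold of the study (51.8, 52.1 and 22.6 in CTX-HC libraries, 16.6, 25.5 and 4.46 in CTX libraries). T and NK cell genes had a median of 0.84 over 9 of 24 (0.50 without CTX-HC replicate 1). The defining T cell gene Cd3e did not share this direction, with 3.91, 6.08 and 0 in CTX-HC libraries and 0, 5.84 and 4.28 in CTX libraries. Cd3g was listed at 0 in all of these libraries. Only 2 of 13 B cell genes passed the filter.

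**Figure D4:**
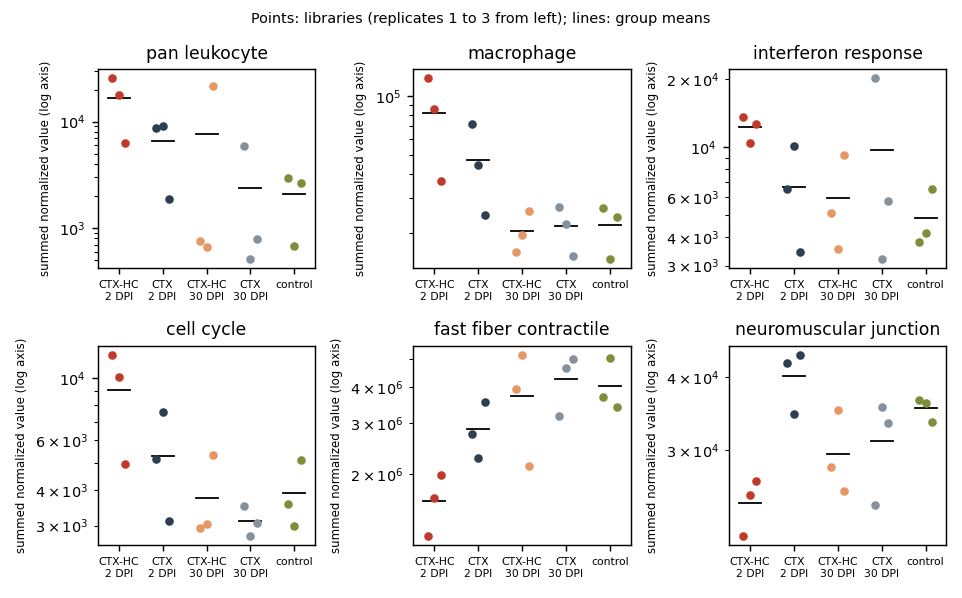
Summed normalized value of 6 gene lists (y axes, log scale) in the 5 gastrocnemius groups, with 1 point per library and lines for group means. The pan leukocyte, macrophage and cell cycle sums of CTX-HC 2 DPI replicate 3 lie within the CTX 2 DPI range, whereas the interferon sums of the 2 groups do not overlap, nor do the fast-fiber and neuromuscular junction sums.

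Ly6a, also known as Sca-1, marks fibro-adipogenic progenitors, the stromal cells of muscle, and endothelial cells, and is induced by interferons. It had 820, 863 and 586 in CTX-HC libraries, against 381, 383 and 317 in CTX libraries and 310 to 727 in controls (1.05 ± 0.47, SE, n = 3 each, adjusted p = 0.662). All 18 stromal genes tested were above 0 with a median of 0.76 (0.47 without CTX-HC replicate 2 and 1.17 without CTX-HC replicate 3), and Ly6a was the 1 member at the threshold and without overlap. Its most abundant members were Gsn, gelsolin, with 3539, 6091 and 1538 in CTX-HC libraries and 2460, 3370 and 2118 in CTX libraries, and Col15a1, a basement membrane collagen, with 1124, 1466 and 789 in CTX-HC libraries and 905, 1113 and 956 in CTX libraries. Endothelial genes had a median of 0.09 (-0.02 without CTX replicate 1), with none of 20 at the threshold or without overlap.

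Interferon-induced genes were mostly above 0. Of 45 tested, 44 were above 0 with a median of 1.08, and 15 did not overlap on the higher side, against a background of 6.18%, while none reached the threshold of the study and 1 (Ifih1) had an unadjusted p below 0.05. The summed value was 13646, 10405 and 12694 in CTX-HC libraries, against 6515, 10082 and 3436 in CTX libraries and 3821 to 6571 in controls. All 3 CTX-HC sums lay above all 3 CTX sums. Interferons induce antiviral sensors and effectors. Ifih1, the RNA sensor MDA5, had 279, 216 and 282 in CTX-HC libraries, against 162, 184 and 84.7 in CTX libraries (0.91 ± 0.40, SE, n = 3 each, adjusted p = 0.662). Ifit1, which binds foreign RNA, had 113, 113 and 123 in CTX-HC libraries and 56.3, 71.4 and 43.5 in CTX libraries, and Oas1a, which makes the activator of RNase L, had 299, 210 and 197 in CTX-HC libraries and 138, 181 and 27.3 in CTX libraries. Both had groups that did not overlap.

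Isg15, a ubiquitin-like modifier, had 118, 78.4 and 132 in CTX-HC libraries and 43.5, 78.9 and 16.6 in CTX libraries, with overlap between CTX-HC replicate 2 and CTX replicate 2. Irf7, the factor that amplifies the response, had 360, 199 and 504 in CTX-HC libraries and 131, 283 and 38.4 in CTX libraries, and also overlapped. The 2 most abundant members were Slfn5, a schlafen family gene, with 1703, 1242 and 1114 in CTX-HC libraries and 809, 1080 and 568 in CTX libraries, without overlap, and Ifitm3, which blocks virus entry, with 1363, 940 and 489 in CTX-HC libraries and 436, 592 and 285 in CTX libraries. A list of interferon-inducible GTPases, mostly targets of interferon gamma, shares at least Irgm1 with the list above. It had a median of 0.19 over 15 genes and 2 without overlap. Without CTX replicate 3 that median was -0.05, and that of the 45 interferon genes was 0.59.

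The promoters of Ifit1, Isg15 and Oas1a are shown because interferons act through a shared promoter element. Each line is the 250 bases before the first listed RefSeq start (GRCm38.p6), with matches of GAAANNGAA, the core of the interferon-stimulated response element, in capitals on either strand. Overlapping matches are merged into 1 run. Ifit1 is at chr19:34640639-34640888 (plus strand), Isg15 at chr4:156200819-156201068 (minus strand) and Oas1a at chr5:120907526-120907775 (minus strand).
Ifit1: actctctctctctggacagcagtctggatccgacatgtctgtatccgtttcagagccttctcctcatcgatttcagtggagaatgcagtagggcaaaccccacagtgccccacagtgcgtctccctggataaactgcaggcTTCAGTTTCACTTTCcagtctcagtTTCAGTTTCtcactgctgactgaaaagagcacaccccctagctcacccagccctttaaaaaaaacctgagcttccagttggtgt
Isg15: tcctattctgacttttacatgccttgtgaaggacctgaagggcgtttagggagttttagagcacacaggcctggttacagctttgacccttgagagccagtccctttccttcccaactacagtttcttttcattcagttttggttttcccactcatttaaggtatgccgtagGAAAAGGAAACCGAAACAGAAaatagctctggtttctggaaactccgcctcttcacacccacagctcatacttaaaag
Oas1a: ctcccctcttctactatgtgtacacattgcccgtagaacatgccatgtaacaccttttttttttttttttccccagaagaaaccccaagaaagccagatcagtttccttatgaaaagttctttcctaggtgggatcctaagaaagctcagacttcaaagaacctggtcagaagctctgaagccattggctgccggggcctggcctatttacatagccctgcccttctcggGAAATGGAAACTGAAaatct
Ifit1 and Isg15 held 3 matches each and Oas1a held 2, the nearest of them 75, 57 and 5 bases before the start. Of the 35 interferon genes with a promoter in the table, 19 held the motif (54.3%), against 6.37% of the promoters of genes tested and 7.16% of all promoters. Of the 12 among them whose groups did not overlap, 6 held it (50%), so the motif was about as frequent in these as in the whole list.

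Chemokines and cytokines were mostly higher in CTX-HC. Of 24 chemokines tested, 23 were above 0 (median 1.30, with 0.87 without CTX-HC replicate 1 and 2.03 without CTX-HC replicate 3) and 5 did not overlap (background 6.18%), namely Ccl2, Ccl3, Ccl7, Ccl8 and Ccl12, of which Ccl2, Ccl7 and Ccl12 bind the monocyte receptor CCR2. Ccl2 had 401, 178 and 143 in CTX-HC libraries, against 113, 126 and 6.89 in CTX libraries and 4.88 to 25.5 in controls (2.17 ± 1.09, SE, n = 3 each, adjusted p = 0.662). Ccl6, a macrophage chemokine at the threshold of the study and the second most abundant member, had 2591, 1970 and 524 in CTX-HC libraries and 574, 580 and 116 in CTX libraries. Cxcl12, the most abundant member and a stromal chemokine, had 4556, 3411 and 2237 in CTX-HC libraries and 2231, 2589 and 2547 in CTX libraries. Ccr2 itself had 1806, 1472 and 595 in CTX-HC libraries and 454, 752 and 122 in CTX libraries. Ccl6, Cxcl12 and Ccr2 overlapped between groups through CTX-HC replicate 3.

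Among 25 cytokines and growth factors, 19 were above 0 (median 0.69, with 0.21 without CTX replicate 3 and 1.03 without CTX-HC replicate 3), with 4 not overlapping on the higher side (Il18, Osm, Tnf and Hgf) and 2 on the lower side (Tgfb3 and Pdgfa). Il18, the inflammasome cytokine at the threshold of the study, had 18.9, 17.4 and 13.2 in CTX-HC libraries, against 6.38, 4.93 and 0 in CTX libraries (2.30 ± 0.78, SE, n = 3 each, adjusted p = 0.662). Tnf had 76.2, 37.4 and 28.4 in CTX-HC libraries and 4.62, 26.2 and 4.31 in CTX libraries. The 2 most abundant members were Vegfa, the angiogenic factor, with 919, 2120 and 3085 in CTX-HC libraries and 3655, 2006 and 4239 in CTX libraries, and Pdgfb, with 885, 1111 and 1353 in CTX-HC libraries and 1621, 1267 and 2028 in CTX libraries, both with overlap. The summed value of the list was 9013, 10268 and 10267 in CTX-HC libraries and 12311, 9030 and 12310 in CTX libraries, so sum and median differ in direction. Of 17 genes of the inflammasome and its sensors, all were above 0 (median 1.40, with 0.76 without CTX replicate 3) and 5 did not overlap (Gsdmd, Il18, Aim2, Naip5 and Tlr7, background 6.18%). Gsdmd, the pore former of pyroptosis, had 277, 223 and 202 in CTX-HC libraries and 91.4, 153 and 56 in CTX libraries. Acod1, which turns cis-aconitate into itaconate in activated macrophages, had 101, 50.8 and 9.50 in CTX-HC libraries and 1.84, 16.8 and 0 in CTX libraries, and was looked up after the other values were seen.

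Receptors that gate leukocyte activation were above 0 as well. All 28 Fc, Siglec and C-type lectin receptors tested were above 0 (median 1.56, with 0.84 without CTX replicate 3) and 4 did not overlap (background 6.18%). Siglec1, the sialic acid receptor of macrophages that is also induced by interferon, had 2151, 1665 and 1363 in CTX-HC libraries, against 619, 905 and 106 in CTX libraries. Fcer1g, the shared signaling chain, had 1694, 1111 and 297 in CTX-HC libraries and 601, 573 and 114 in CTX libraries. Siglec1 was high in all 3 CTX-HC libraries and Fcer1g in 2 of them. Complement genes had a median of 0.98 over 18 tested (0.52 without CTX-HC replicate 1 and 1.84 without CTX-HC replicate 3), with 1 without overlap (Cfb), and genes of phagocytosis and the lysosome a median of 0.74 (0.37 without CTX replicate 3), with 29 of 29 above 0 and 4 without overlap, against the same background.

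Genes of proliferation were mostly above 0. Of 34 cell cycle genes, 33 were above 0 with a median of 0.98 (0.52 without CTX replicate 3 and 1.46 without CTX-HC replicate 3), 4 did not overlap on the higher side (Ccne2, Mcm2, Mcm6 and Pcna, background 6.18%) and Mcm3 reached the threshold of the study. Pcna, the sliding clamp of DNA replication, had 970, 609 and 561 in CTX-HC libraries, against 398, 424 and 352 in CTX libraries and 308 to 405 in controls (0.83 ± 0.21, SE, n = 3 each, adjusted p = 0.619). Mcm6, a subunit of the replicative helicase, had 602, 561 and 317 in CTX-HC libraries and 236, 289 and 121 in CTX libraries. Mki67, the proliferation antigen, had 1153, 779 and 359 in CTX-HC libraries and 422, 674 and 156 in CTX libraries. Rrm1, a ribonucleotide reductase subunit, had 746, 783 and 544 in CTX-HC libraries and 717, 679 and 474 in CTX libraries. The summed value of the list was 12023, 10103 and 4946 in CTX-HC libraries and 5141, 7580 and 3116 in CTX libraries, in the same order of libraries as the leukocyte sum within CTX-HC and CTX groups.

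Of 60 replication histones tested, 57 were above 0 with a median of 1.07 (0.65 without CTX replicate 3 and 1.68 without CTX-HC replicate 3), 6 did not overlap (background 6.18%) and 3 reached the threshold of the study (Hist1h2bl, Hist1h3i and Hist2h4). Hist2h4 had 406, 220 and 119 in CTX-HC libraries, against 109, 97.6 and 64.2 in CTX libraries. The most abundant members overlapped, with Hist1h1c at 1560, 1682 and 1507 in CTX-HC libraries and 1915, 1253 and 1264 in CTX libraries and Hist2h2aa1 at 1413, 777 and 792 in CTX-HC libraries and 778, 638 and 475 in CTX libraries. Histone genes share long stretches of sequence, their messages mostly lack a poly(A) tail and the libraries were made from polyadenylated RNA, so single members are uncertain.

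Matrix genes were above 0 in most cases. Of 35 genes of the extracellular matrix, 30 were above 0 (median 0.49, with 0.14 without CTX-HC replicate 2 and 0.85 without CTX-HC replicate 3), none had an unadjusted p below 0.05 and none was without overlap. Col1a1 had 18449, 41158 and 11692 in CTX-HC libraries and 17864, 27268 and 13344 in CTX libraries, and Col3a1 had 21259, 38419 and 8666 in CTX-HC libraries and 15118, 19162 and 7511 in CTX libraries. CTX-HC replicate 2 was the highest library for both collagens. Of 30 matricellular and remodeling genes, 25 were above 0 (median 0.60, with 0.39 without CTX replicate 3 and 1.05 without CTX-HC replicate 3), 2 did not overlap on the higher side, near the background of 6.18%, and Adamts5, an aggrecanase, and Plau, the urokinase, reached the threshold of the study. Adamts5 had 993, 1150 and 529 in CTX-HC libraries, against 399, 478 and 393 in CTX libraries. CTX-HC replicate 2 also held the most Schwann cell RNA, with a summed value of 8168 against 1972 and 1045 in the other CTX-HC libraries and 925 to 2070 in CTX libraries, and the Schwann cell median of 0.64 was -0.11 without it. The part of this in the collagen values of the same library was not tested.

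Genes of energy metabolism were mostly below 0. Oxidative phosphorylation had a median of -0.36 with 33 of 34 genes below 0, fatty acid oxidation -0.28 with 24 of 26 below 0 and glycolysis -0.49 with 17 of 24 below 0, and none of the 3 lists had a gene at the threshold of the study. On the lower side, 1 of the 26 fatty acid oxidation genes did not overlap and none of the other lists did (background 7.35%). Without CTX-HC replicate 1 the median was -0.11 for oxidative phosphorylation and -0.034 for fatty acid oxidation. The median for glycolysis was -0.23 without CTX replicate 3 and -0.81 without CTX replicate 2. Atp5b, a subunit of ATP synthase, had 17744, 28965 and 30481 in CTX-HC libraries and 32633, 26673 and 37607 in CTX libraries, with a log2 fold change of -0.35 that was 0.15 after quantile normalization. Aldoa, the muscle aldolase, had 113207, 174987 and 197449 in CTX-HC libraries and 279759, 172521 and 365784 in CTX libraries. Both were lowest in CTX-HC replicate 1, and CTX replicate 2 lay within the CTX-HC range.

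Chaperones of the endoplasmic reticulum were mostly above 0. Of 18 tested, 16 were above 0 with a median of 0.41 (from 0.26, without CTX-HC replicate 1, to 0.49 with each of the 6 libraries left out), 3 did not overlap on the higher side and 4 had an unadjusted p below 0.05. Hspa5, the chaperone BiP, had 10963, 7805 and 8601 in CTX-HC libraries, against 7306, 5934 and 6794 in CTX libraries and 3539 to 4970 in controls (0.44 ± 0.21, SE, n = 3 each, adjusted p = 0.662). Pdia6, a protein disulfide isomerase, had 3037, 2496 and 2162 in CTX-HC libraries and 2041, 1757 and 1466 in CTX libraries. All 6 injured libraries were above all controls for both genes, the CTX-HC libraries furthest.

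Several lists of stress and of muscle wasting were near 0. The median was -0.10 for 21 genes of muscle atrophy, -0.15 for cytosolic heat shock and for hypoxia, -0.00 for targets of NRF2, 0.03 for targets of p53 and 0.09 for immediate early genes, all of them signs that turn with single libraries or with the scaling. Genes of the amino acid stress response had a median of 0.42 over 20 tested (from 0.28 to 0.55 with each of the 6 libraries left out), with 16 above 0, 3 without overlap on the higher side and 1 on the lower side, and none at the threshold of the study. Among the atrophy genes Map1lc3a, an autophagosome protein, had 1427, 1773 and 2216 in CTX-HC libraries, against 2976, 3119 and 3261 in CTX libraries (-0.81 ± 0.21, SE, n = 3 each, adjusted p = 0.619). The ubiquitin ligase Fbxo32 had 15726, 8608 and 10755 in CTX-HC libraries and 24381, 8994 and 26144 in CTX libraries. Gdf11, a TGF-beta family ligand related to myostatin and looked up after the values were seen, had 231, 301 and 253 in CTX-HC libraries and 880, 528 and 1220 in CTX libraries, and all CTX-HC libraries lay below all controls (742 to 1067).

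**Figure D5:**
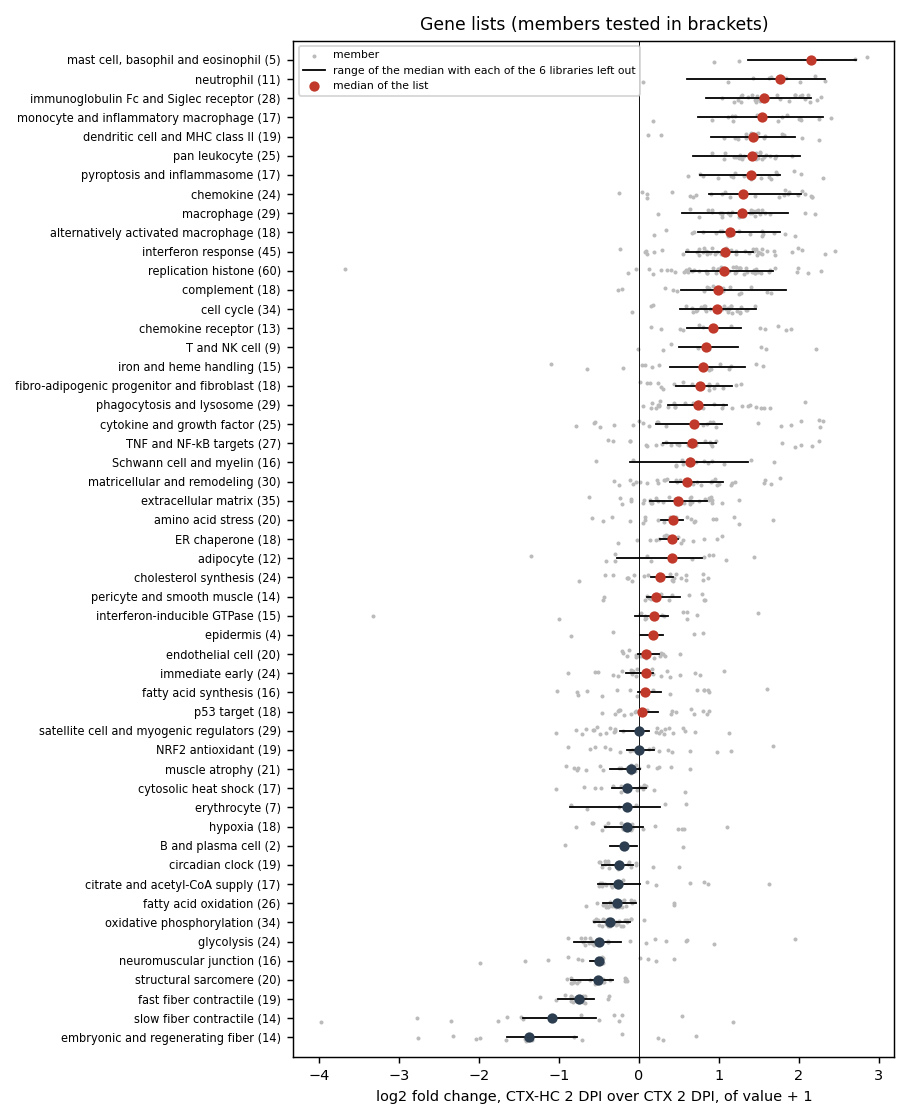
Log2 fold changes of CTX-HC 2 DPI over CTX 2 DPI (x axis) for 52 gene lists ordered by median, with members as gray points, medians in red (above 0) or dark (below 0), and lines for the range of the median with each of the 6 libraries left out. Most leukocyte lists lie above 0 (pan leukocyte 1.42) and the fiber lists below 0 (slow fiber -1.09), the B cell list lies at -0.19, and the mast cell list rests on 5 of 15 genes.

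The effect of HC at 2 DPI was set against its effect at 30 DPI in the same fit. No gene passed an adjusted p of 0.05 for the difference between the effects (0% called of 14033), and 355 had an unadjusted p below 0.05. The 3 genes of smallest p were H19, Calcoco1 and Atp1b2, all lower in CTX-HC at 2 DPI. The difference for H19 was -2.22 ± 0.41 on the log2 scale (SE, adjusted p = 0.999), with an effect of 0.52 ± 0.29 at 30 DPI. For Calcoco1 the difference was -0.89 ± 0.19 and for Atp1b2 -1.53 ± 0.34, both with an adjusted p of 0.999. Myh7 had an effect of 0.12 ± 0.86 at 30 DPI, and the difference of -4.10 ± 1.22 had an adjusted p of 0.999. The median effect at 30 DPI was 0.41 for the slow-fiber list, 0.66 for the pan leukocyte list and -0.24 for the interferon list, with both libraries that stand apart included.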

How the data were processed

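RNA of gastrocnemius muscle was prepared with a stranded poly(A) kit and sequenced on a NovaSeq instrument, and the authors aligned the reads to mm10, per the labels and the methods of the study. The deposited values are a signal: gene counts that the authors normalized by the median of ratios with a DESeq2 application. Whole reads could not be recovered from them, so no count test was run. Depth was estimated by dividing each total by the commonest small value (up to 2) of that library, which was taken as 1 read. In the libraries compared, only 6.12 to 20.4% of low values were whole multiples of that value, so the depths are rough. The tables of other tissues and cells were not used here.

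Values were compared in R 4.3.3 with limma 3.58.1 on log2(value + 1), with a trend in the variance, over all 15 gastrocnemius libraries. A gene entered the test (14033 of 24972) when 3 or more libraries held it at 10 or higher, with Benjamini-Hochberg adjustment. Fold changes on this scale understate those of low genes. The fit was tested on simulated data with less spread than the real libraries, so its power at the real spread was not tested. Genes were named by rule. The rule took Acly, Myh7, Tnnt1, Tnnc1, Ly6a and Cd68, and the text of the study does not name those after Acly for this comparison. It also took the 10 of smallest p in each direction at the threshold of the study without overlap (unnamed models left out). The last were the 3 of smallest p for the interaction and, for lists, the 2 members of highest mean. Any further gene was picked with its values known. Some genes that the rule names are not reported here. The members and the 52 lists were chosen with earlier results of these data known. Lists were described by counts and medians, without a set test. Gene positions are from GENCODE on GRCm38 and promoters from RefSeq on GRCm38.p6. Alternatives changed the libraries in the fit, the filter, the pseudocount, the scaling, the weights and the trend.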

Additional observations from a re-analysis of the deposited data

How the results depend on the processing

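No paired analysis was possible because the labels of the gastrocnemius libraries carry no replicate numbers. The number of genes at an adjusted p of 0.05 was 0 under most alternatives, 29 with array weights and 0 to 1 with each library left out (1 without CTX replicate 1). For the difference from 30 DPI it was 692 with array weights and 0 to 1 with each library left out. The array weights did not converge and ranged between 0.106 and 20.3, so these counts are given with that limit. At the threshold of the study, 129 higher and 120 lower genes (249, of which 51.8% were higher) became 286 and 103 (389, 73.5% higher) with only the 6 libraries, 290 and 179 (469) with no filter, 74 and 88 (162) with a minimum of 50, 158 and 238 (396, 39.9% higher) after quantile normalization, 159 and 94 (62.8% higher) with a pseudocount of 5, and 1163 and 162 (1325, 87.8% higher) with array weights. With an adjusted p and the same fold the count was 0. With each library left out, the count ranged from 29 to 567 for higher genes, from 73 to 182 for lower genes and from 109 to 749 for both. In fits added after the data were seen, it was 411 higher and 546 in all without both 30 DPI libraries that stand apart, and 336 higher and 468 in all with only the 2 DPI and control libraries. The cause of these shifts was not tested.

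Of 123 named genes that were followed through the alternatives, 13 had another sign under an alternative. After quantile normalization the log2 fold change was 0.15 for Atp5b, 0.25 for Myh4 and 0.00 for Ttn, and with array weights it was -0.0053 for Hist1h1c and -0.33 for Pdk4. With each library left out it ranged from -0.90 to 0.81 for Ankrd2, from -0.068 to 0.38 for Col15a1, from -0.35 to 0.56 for Col1a1, from -0.032 to 0.54 for Ctsd, from -0.16 to 0.84 for Gsn, from -1.20 to 0.48 for Myog, from -0.011 to 0.70 for Nes, from -0.16 to 0.37 for Pdk4 and from -0.032 to 0.32 for Rrm1. Depth limits the values of a few reads, such as those of Amph, Cma1 and Mcpt4.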
